A study of Homo sapiens with 17 samples.

Results

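The mir-106b-25 cluster and the mir-106a-363 cluster are paralogues of the mir-17-92 cluster, and mir-92b is a single hairpin whose mature microRNA shares the seed of miR-25 and miR-92a. The members were taken by name: hsa-mir-106b, hsa-mir-93 and hsa-mir-25 of the first cluster, hsa-mir-106a, hsa-mir-18b, hsa-mir-20b, hsa-mir-19b-2, hsa-mir-92a-2 and hsa-mir-363 of the second, and hsa-mir-92b, 10 human hairpins in all, written below without the species prefix. Of these, 8 were among the 1282 hairpins listed for the rescue libraries and 7 among the 294 hairpins listed for the parental and dCTT libraries. Neither table listed mir-20b or mir-363, and only the rescue table listed mir-106a. Hairpins with a mean of at least 10 scaled reads over the rescue libraries were tested, which kept 7 members of 336 hairpins. mir-106a, with a mean of 3.10, was the listed member left out.

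The data are 17 small-RNA sequencing libraries of HCT116, an established human colon carcinoma cell line. 1 library came from parental cells and 1 from dCTT cells, whose DGCR8 had lost its CTT domain, the C-terminal tail, through CRISPR-Cas9 deletion, called a functional knockout in the labels. All 15 rescue libraries came from cells with that deletion, in 5 groups of 3: mock rescue, DGCR8 WT, DGCR8 C352A, DGCR8 P351A, and DGCR8 P351A with ALA, a treatment that the labels do not spell out. C352A and P351A are alanine replacements of a cysteine of DGCR8 and of the proline before it. The labels name neither the number of clones nor a separate culture behind each replicate, so the p-values below cover the spread between libraries, which may be technical.

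MicroRNA hairpins are cut out of long primary transcripts in the nucleus by Microprocessor, in which DROSHA cleaves and DGCR8 grips the hairpin near its apical loop. DGCR8 binds heme through a cysteine next to a proline, and DICER then trims the released hairpin to the mature microRNA. The clusters are best known in colon and other tumours for promoting the cell cycle and survival: the miR-17 and miR-25/92 seeds pair with messages such as CDKN1A and BCL2L11.

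The mir-106b-25 cluster spans 515 bases of chromosome 7 (GRCh38, minus strand), inside introns of MCM7, a replication licensing gene. mir-106b lies at chr7:100093993-100094074, mir-93 at chr7:100093768-100093847 and mir-25 at chr7:100093560-100093643. The mir-106a-363 cluster spans 901 bases of the X chromosome (chrX:134169378-134170278, minus strand) in an exon of a noncoding host transcript. mir-92b lies at chr1:155195177-155195272 on the plus strand.

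The mature microRNAs of the arms with the shared seeds are shown to set out which members can be told apart by their reads. Capitals mark the seed, bases 2 to 8 from the 5′ end, and the sequences are RefSeq's on GRCh38.p14, which held mature sequences for all 10 members. Members with the miR-17 seed, AAAGUGC, come first, with miR-17 itself for comparison.
miR-106b-5p: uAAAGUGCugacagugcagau
miR-93-5p: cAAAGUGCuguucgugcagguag
miR-106a-5p: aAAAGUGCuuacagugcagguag
miR-20b-5p: cAAAGUGCucauagugcagguag
miR-17-5p: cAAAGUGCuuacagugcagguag

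Members with the miR-25/92 seed, AUUGCAC, form the other large group.
miR-25-3p: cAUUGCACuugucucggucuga
miR-92a-3p: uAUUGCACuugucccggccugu
miR-363-3p: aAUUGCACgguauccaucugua
miR-92b-3p: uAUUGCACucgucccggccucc

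The remaining members carry the miR-18 and miR-19 seeds.
miR-18b-5p: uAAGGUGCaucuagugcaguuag
miR-18a-5p: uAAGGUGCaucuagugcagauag
miR-19b-3p: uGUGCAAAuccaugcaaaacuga

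Counted from the 5′ end of the mir-17-92 microRNA, miR-106a differed from miR-17 by C1A and miR-18b differed from miR-18a by A20U. miR-92b differed from miR-92a by U10C, G21C and U22C, and miR-25 differed from miR-92a by U1C, C14U, C18U and U22A. The 3p microRNAs of mir-19b-2 and mir-92a-2 had 0 differences from those of mir-19b-1 and mir-92a-1 on chromosome 13.

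The hairpins of mir-106b, mir-25 and mir-92b, members with their own mature sequence, and of mir-17 are shown because the results below compare them. For mir-93 no stretch between both mature arms was available. Capitals mark the stretch between both mature arms, which holds the apical loop.
mir-106b: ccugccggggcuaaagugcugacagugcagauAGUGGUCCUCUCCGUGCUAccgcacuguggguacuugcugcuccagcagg
mir-25: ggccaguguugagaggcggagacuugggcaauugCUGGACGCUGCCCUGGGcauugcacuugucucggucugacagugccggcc
mir-92b: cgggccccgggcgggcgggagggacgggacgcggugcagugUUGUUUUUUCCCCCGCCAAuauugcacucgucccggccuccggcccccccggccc
mir-17: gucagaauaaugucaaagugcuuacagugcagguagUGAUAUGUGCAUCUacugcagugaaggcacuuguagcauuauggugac

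The letters UGU, an apical-loop motif of many primary microRNAs, were searched in that stretch on the RNA strand only. They occurred in mir-92b, mir-19b-2, mir-92a-2 and mir-17, and not in mir-106b, mir-25, mir-18b or mir-363. Of 739 human hairpins with both arms in RefSeq, 33.7% held UGU in this stretch. Of 545 with a stretch of 13 to 21 bases, as in the hairpins named here, 36.5% did. Among 156 tested hairpins with both arms the share was 41.0%. These are letter matches only.

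Values are scaled reads, the authors' read counts multiplied by 1 factor per library. Recovered reads summed over hairpins lay between 146023 and 587214 for mock libraries, between 660126 and 1470755 for WT, and between 199133 and 1023184 for C352A. P351A libraries held 1666688 to 2175294 and those with ALA 1191542 to 1941805, while the parental library held 5122793 and the dCTT library 168798. The 9 mock, WT and C352A libraries held 1038 to 5176 scaled reads of mir-373, and the 6 P351A and P351A plus ALA libraries held 0 reads of it. The P351A libraries therefore stood apart from WT and mock in a way that cannot be told apart from the mutation, while P351A plus ALA and P351A did not differ in it. All 10 colon epithelial marker hairpins were listed, at 0.184 to 0.651% of a rescue library's summed value, against 0.0699 to 0.220% for markers of other cells, 9 of 11 listed. Both lists were lower in WT (0.272 to 0.379% and 0.142 to 0.145%) than in mock (0.390 to 0.651% and 0.190 to 0.197%). Both were also lower with ALA (0.184 to 0.308% and 0.0699 to 0.0919%) than in P351A alone (0.318 to 0.337% and 0.134 to 0.166%), without overlap. The part of these differences in the results below was not tested.

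mir-19b-2 and mir-92a-2 could not be separated from their chromosome 13 copies. mir-19b-2 held 99.3 to 100% of the reads of mir-19b-1 in 17 libraries, was equal to it in 6, and differed by at most 8 reads. mir-92a-2 held 97.3 to 99.8% of the reads of mir-92a-1. Values of both hairpins therefore describe shared mature sequences, not output of the X chromosome cluster.

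The 2 listed members that carry a mature sequence specific to the X chromosome cluster were low. mir-18b held 9.27 to 31.6% of the reads of mir-18a, with a median of 16.9%. mir-106a had 41 reads summed over the 15 rescue libraries, against 16121 for mir-17. It had 0 reads in 5 libraries, at most 3 in 11, and 13 in WT replicate 1, the most of any. A count of 0 allows up to 3 reads, for counting error only. Its share of mir-17 reads was 0 to 1.40%, the sequences differ by their first base alone, and how reads were assigned to hairpins is not given in the sources used here.

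**Figure D1:**
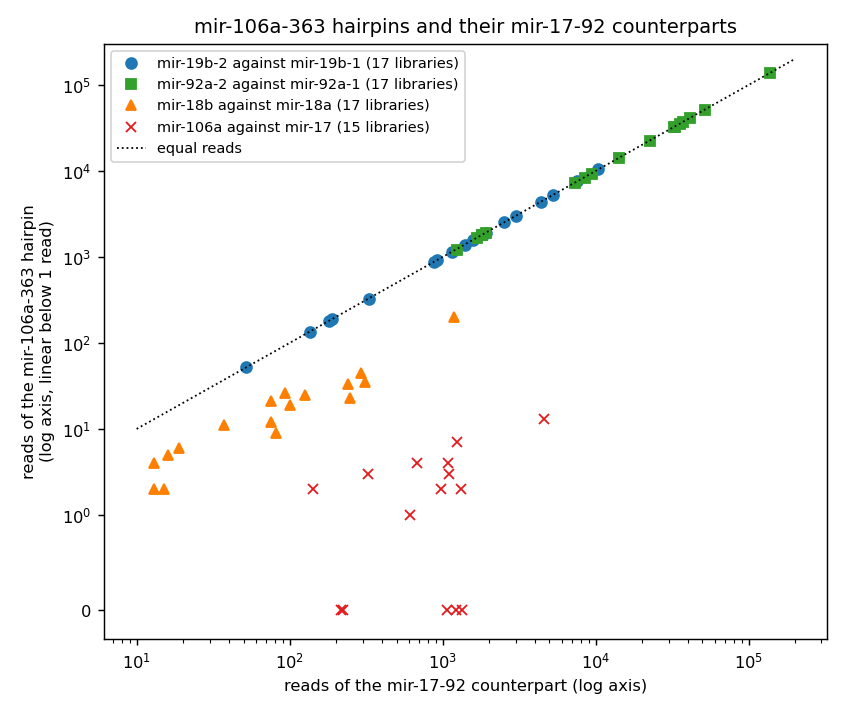
Reads of each mir-106a-363 hairpin (vertical axis, log scale, linear below 1 read) against reads of its mir-17-92 counterpart (horizontal axis, log scale), 1 point a library. mir-19b-2 and mir-92a-2 lie on the line of equal reads, mir-18b at 9.27 to 31.6% of mir-18a, and mir-106a at 0 to 13 reads.

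Loss of the DGCR8 tail was examined in the parental and dCTT libraries. All 7 listed members were lower in the dCTT library, by 36.4-fold to 77.6-fold, and mir-25 by the most. Each of the 294 listed hairpins had a higher value of at least 50.7 scaled reads, so hairpins low in both libraries were not listed. A member with few dCTT reads, such as mir-18b, was listed through its parental value, so its direction was set by the listing. The parental library held 3394 scaled reads of mir-106b, 12541 of mir-93 and 56213 of mir-25, and the dCTT library held 71, 273 and 723. mir-92b stood at 37041 and 669. The log2 ratio of parental over dCTT, after adding 1 read, was 5.56 for mir-106b, 5.52 for mir-93 and 6.28 for mir-25. It was 5.79 for mir-92b, 5.43 for mir-18b, 5.19 for mir-19b-2 and 5.61 for mir-92a-2. With 1 library a group there is no replicate check and no test.

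Their median was 5.56, beside 5.54 over all 294 hairpins and 5.21 over the mir-17-92 cluster. mir-25 lay at percentile 90.5 of all hairpins, with a counting interval on log2 (95%) of 6.18 to 6.39. The interval was 5.24 to 5.94 for mir-106b and 5.35 to 5.70 for mir-93, both below that of mir-25 from the same primary transcript. mir-18b had 200 and 2 reads, and its interval ran from 4.13 to 9.06. These intervals are for the ratio of reads without the added read and cover counting error only. When both libraries were centred on their median hairpins, the members' median ratio became 1.15, so the size of these ratios follows the scaling.

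WT rescue against mock asked what WT DGCR8 restored. All 3 hairpins of the mir-106b-25 cluster rose, as did mir-92b. mir-93 stood at 2217, 1159 and 1321 scaled reads in the mock libraries and at 11778, 4487 and 4825 in the WT libraries. Every WT library lay above every mock library. By limma on log2(value + 1), with Benjamini-Hochberg adjustment over the 336 hairpins, mir-93 rose by 2.08 ± 0.34 on the log2 scale (SE, n = 3 a group, adjusted p = 6.55e-05).

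mir-25 stood at 2119, 1172 and 1301 in mock and at 11414, 4624 and 4847 in WT, close to mir-93 library by library. It rose by 2.10 ± 0.38 (limma adjusted p = 0.00018). mir-106b, the first hairpin of the transcript, stood at 781, 479.7 and 411 in mock and at 2634, 1135 and 1126 in WT. Its groups did not overlap either, and it rose by 1.48 ± 0.36 (limma adjusted p = 0.00182).

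mir-92b stood at 667, 341 and 559 in mock and at 2639, 951 and 1324 in WT. It rose by 1.57 ± 0.40 (limma adjusted p = 0.00287), without overlap. mir-92a-2 rose by 1.70 ± 0.36 (limma adjusted p = 0.000658) and mir-19b-2 by 1.78 ± 0.49 (limma adjusted p = 0.00486), the latter with groups that overlapped. mir-18b stood at 21, 6.4 and 10.03 in mock and at 44.03, 20.7 and 12.8 in WT. Its groups overlapped and its difference of 0.97 ± 0.49 did not pass (limma adjusted p = 0.0917). It passed without mock library a (1.39, limma adjusted p = 0.0218) and without WT replicate 3 (1.36, limma adjusted p = 0.0314), which made the count of members 7.

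In all, 6 of 7 tested members rose, where 55.7% of the tested hairpins rose, and 5 members had groups that did not overlap, beside 57.1% of hairpins. The members' median log2 fold change was 1.70, the value of mir-92a-2, and that of all tested hairpins was 1.13. The 6 mir-17-92 hairpins also rose, with a median of 1.83. The 6 members that rose include mir-19b-2 and mir-92a-2, whose reads the mir-17-92 cluster also counts. WT replicate 1 was the highest WT library and mock library a the highest mock library for every tested member. With equal library totals 1 member, mir-93, passed, and over all hairpins 54 rose and 126 fell in place of 187 and 25. edgeR with TMM called 2 members and DESeq2 called 3.

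**Figure D2:**
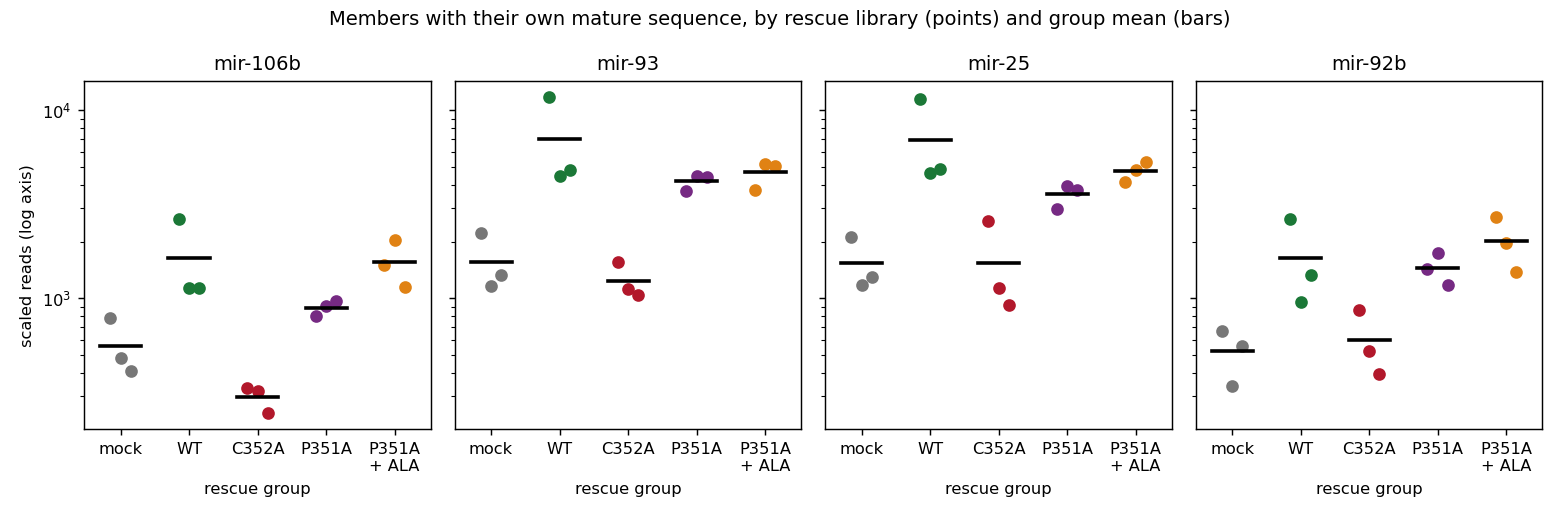
Scaled reads (log axis) of mir-106b, mir-93, mir-25 and mir-92b in each rescue library, points, with the mean of each group of 3, bars. WT libraries lie above mock for all 4 hairpins, C352A libraries below WT, and P351A libraries below WT except for mir-92b.

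C352A rescue against WT asked what the mutant of the heme-binding cysteine did not restore. Every tested member was lower with C352A. mir-106b stood at 333, 319.6 and 243 scaled reads with C352A, below all WT and all mock libraries. It fell by 2.34 ± 0.36 on the log2 scale against WT (limma adjusted p = 1.83e-05). mir-93 stood at 1554, 1121 and 1038, and fell by 2.38 ± 0.34 (limma adjusted p = 8.76e-06). These WT libraries are the same as in the comparison with mock.

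mir-25 stood at 2558, 1130 and 914 with C352A, replicate 1 more than 2-fold above the others. It fell by 2.20 ± 0.38 (limma adjusted p = 6.54e-05). mir-92b stood at 868, 524 and 394 and fell by 1.40 ± 0.40 (limma adjusted p = 0.00462), the smallest fall of the 7. mir-19b-2 fell by 2.30 ± 0.49 (limma adjusted p = 0.00043) and mir-92a-2 by 2.10 ± 0.36 (limma adjusted p = 5.23e-05). mir-18b, at 4.96, 11.1 and 8.44, fell by 1.44 ± 0.49 (limma adjusted p = 0.0145). Without WT replicate 1 its adjusted p was 0.102, and without C352A replicate 1 it was 0.0714.

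All 7 tested members fell, where 65.5% of the tested hairpins fell, and none of the 7 overlapped between groups, beside 66.4% of hairpins. Their median of -2.20 stood beside -1.76 for all hairpins, and all 6 mir-17-92 hairpins fell. The 7 members include mir-19b-2 and mir-92a-2, whose reads the mir-17-92 cluster also counts. The number of falls depended on the scaling: 4 with libraries centred on the median hairpin, 5 on a list of hairpins made without DGCR8, and 2 with equal totals. edgeR with TMM called 0 and DESeq2 called 2, while edgeR with the authors' scale called 7. Over all hairpins the median-centred fit gave 86 rises and 122 falls in place of 0 and 220. mir-92b was 0.03 higher with C352A than with WT after median centring and 0.24 higher with equal totals, neither of which passed.

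Against mock, C352A changed 0 of 7 tested members by limma, where 14.3% of the tested hairpins fell and 0.595% rose. At an unadjusted p under 0.05, 1 was lower by limma, mir-106b, and 1 by edgeR with the authors' scale. At the same unadjusted threshold 2 were higher by edgeR with TMM and 2 by DESeq2. After adjustment edgeR and DESeq2 called 0. mir-106b differed by -0.85 ± 0.36 (limma adjusted p = 0.0914), and its groups did not overlap, beside 39.9% of hairpins that were lower without overlap. Differences of the other 6 ran from -0.52 for mir-19b-2 to 0.16 for mir-92b. The 95% interval was -1.02 to 0.41 for mir-93 and -0.90 to 0.71 for mir-25, so smaller differences were not detectable.

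P351A rescue against WT concerned the proline next to the heme-binding cysteine. No tested member passed, while mir-17, which shares its seed with mir-106b and mir-93, fell. mir-106b stood at 799, 910.3 and 959 scaled reads with P351A, mir-93 at 3723, 4475 and 4422, and mir-25 at 2990, 3927 and 3775. Each of these P351A values was below all 3 WT libraries, beside 60.1% of hairpins that were lower without overlap. mir-92b stood at 1429, 1740.01 and 1170, within the range of WT.

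The difference was -0.76 ± 0.36 for mir-106b (limma adjusted p = 0.0834), -0.60 ± 0.34 for mir-93 (limma adjusted p = 0.15) and -0.84 ± 0.38 for mir-25 (limma adjusted p = 0.0723). It was -0.06 ± 0.40 for mir-92b (95% interval -0.91 to 0.78), -0.58 ± 0.49 for mir-18b, 0.56 ± 0.49 for mir-19b-2 and 0.16 ± 0.36 for mir-92a-2. mir-17 stood at 6106, 2093 and 1914 scaled reads in WT and at 492, 535 and 526 in P351A, and fell by 2.49 ± 0.44 (limma adjusted p = 0.000149).

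Thus 0 of 7 tested members passed, where 51.2% of the tested hairpins fell and 3.27% rose. At an unadjusted p under 0.05, 2 were lower, mir-106b and mir-25. edgeR with the authors' scale called the same 2 lower, edgeR with TMM called 6 higher and DESeq2 called 3 higher. The members' median was -0.58 and that of all hairpins -0.95. Of the mir-17-92 hairpins 1 fell, mir-17. Under median centring 3 members rose, and with equal totals or the DGCR8-independent list 2 did, so that over all hairpins 68 rose and 74 fell with median centring in place of 11 and 172. The direction for mir-106b, mir-93 and mir-25 turned under 2, 3 and 2 of these 3 scalings. Without WT replicate 1 mir-19b-2 rose by 1.24 (limma adjusted p = 0.0155), and without WT replicate 2 mir-25 fell by 1.07 (limma adjusted p = 0.0447).

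P351A was above mock for most members. Against mock, mir-93 rose by 1.48 ± 0.34 (limma adjusted p = 0.00172), mir-25 by 1.26 ± 0.38 (limma adjusted p = 0.0115) and mir-92b by 1.50 ± 0.40 (limma adjusted p = 0.00535). mir-92a-2 rose by 1.86 ± 0.36 (limma adjusted p = 0.000414) and mir-19b-2 by 2.35 ± 0.49 (limma adjusted p = 0.000836). mir-106b was 0.73 ± 0.36 higher without passing (limma adjusted p = 0.103), and mir-18b 0.39 ± 0.49 higher, a direction that turned with equal totals.

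So 5 of 7 tested members rose, where 22.6% of the tested hairpins rose and 25.9% fell. These 5 include mir-19b-2 and mir-92a-2, whose reads the mir-17-92 cluster also counts. 6 members did not overlap with mock, beside 29.8% of hairpins that were higher without overlap. Their median was 1.48, beside -0.03 for all hairpins and 1.59 for the mir-17-92 cluster, in which 5 of 6 rose and mir-17 stood at -0.40 ± 0.44 (limma adjusted p = 0.463). Without mock library a, mir-106b passed as well (1.00, limma adjusted p = 0.035), and without mock library b, mir-25 did not (limma adjusted p = 0.0504). The other scalings gave 4 to 7 members higher, and all hairpins split into 153 rises and 25 falls on the DGCR8-independent scale. With equal totals that split was 55 and 164, in place of 76 and 87.

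**Figure D3:**
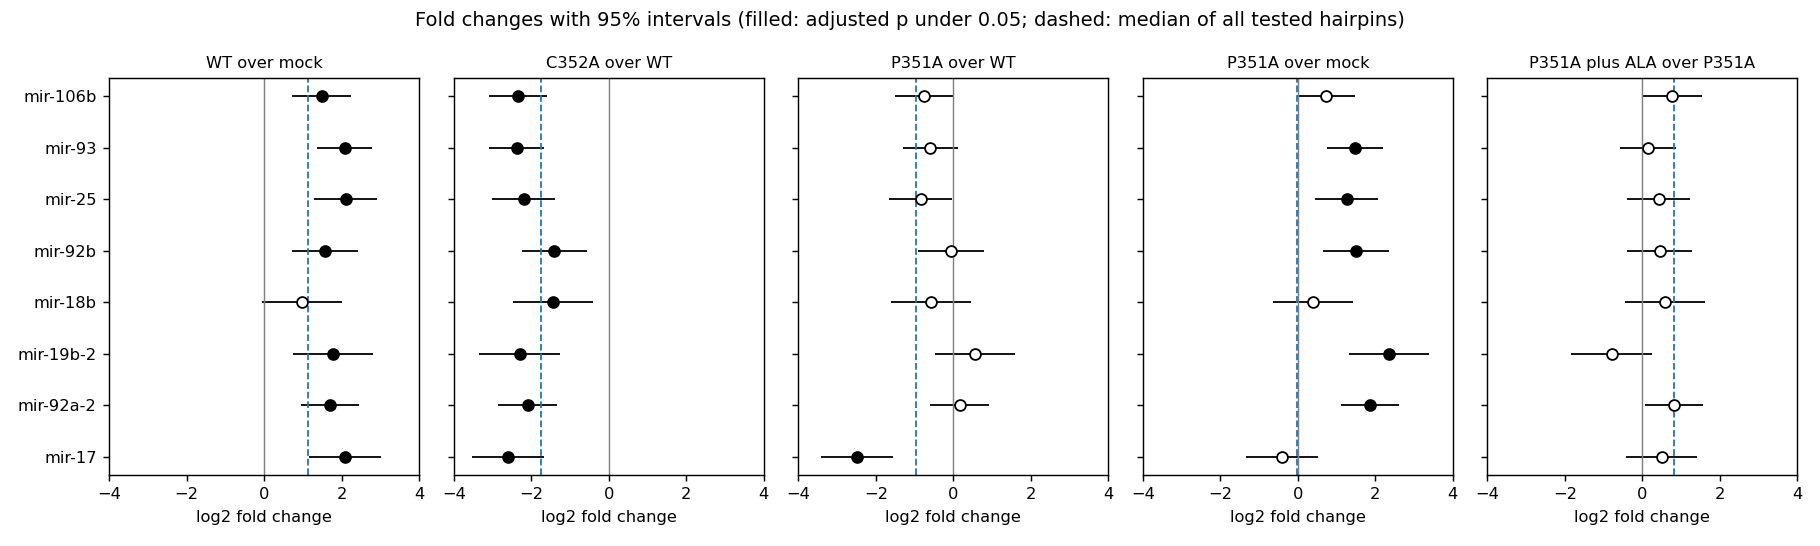
Log2 fold changes (horizontal axis) with 95% intervals for the 7 tested members and mir-17 in 5 comparisons; filled points have a limma adjusted p under 0.05 and the dashed line is the median of all 336 tested hairpins. In P351A over WT mir-17 is the filled point at -2.49, while the members lie between -0.84 and 0.56.

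ALA treatment of P351A cells changed no member past the threshold. mir-106b stood at 1493, 2048 and 1142 scaled reads with ALA, above all P351A libraries, a difference of 0.77 ± 0.36 (limma adjusted p = 0.0798). mir-93 stood at 3768, 5202 and 5050.2 and differed by 0.14 ± 0.34 (95% interval -0.57 to 0.86). mir-25 stood at 4154, 4805 and 5285, without overlap, and differed by 0.42 ± 0.38 (95% interval -0.39 to 1.22).

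mir-92b stood at 2698, 1966 and 1379, a difference of 0.44 ± 0.40 with overlap. mir-92a-2 was 0.81 ± 0.36 higher (limma adjusted p = 0.0676), and mir-19b-2 was 0.79 ± 0.49 lower without overlap and without passing (limma adjusted p = 0.196). mir-18b was 0.58 ± 0.49 higher, with overlap. Thus 3 members were higher without overlap, beside 60.1% of hairpins, and 1 was lower, beside 10.1%.

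0 of 7 tested members passed, where 44.6% of the tested hairpins rose and 2.98% fell. At an unadjusted p under 0.05, 2 were higher, mir-106b and mir-92a-2. edgeR with TMM called 3 lower, DESeq2 called 2 lower and edgeR with the authors' scale called 0. The limma fit on only these 2 groups called 2 higher, mir-106b and mir-92a-2, and 1 lower, mir-19b-2. mir-92a-2 was also called higher with the replicate block and without P351A plus ALA replicate 3. The members' median was 0.44, beside 0.81 for all hairpins. The sign followed the scaling: 2 members fell with median centring or equal totals, and all 7 fell with the DGCR8-independent list. Over all hairpins median centring gave 45 rises and 105 falls in place of 150 and 10. Of the mir-17-92 hairpins 1 fell, mir-19a, by 1.48 ± 0.53 (limma adjusted p = 0.0301), a call lost with no filter on low values (limma adjusted p = 0.0532) and in 4 of 6 fits that left out 1 library. The limma adjusted p was 0.099 without P351A replicate 2, 0.0804 without replicate 3, 0.0809 without P351A plus ALA replicate 1 and 0.0623 without replicate 3 of that group. These P351A libraries also enter the comparisons with WT and mock.

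By mean level, mir-106b ran from C352A (299) through mock (557), P351A (889.5) and P351A plus ALA (1561) to WT (1632). Its neighbours C352A and mock, mock and P351A, and P351A and P351A plus ALA did not pass in limma. The ranges of P351A plus ALA and WT overlapped, and without WT replicate 1 the WT mean was 1131, below P351A plus ALA. mir-93 followed the same order, with mock and P351A apart in limma, from 1238 in C352A and 1566 in mock to 4207 in P351A, 4673 in P351A plus ALA and 7029.6 in WT. For mir-25 the means were 1531 in mock and 1534 in C352A, below P351A at 3564, P351A plus ALA at 4748 and WT at 6962. The place of WT at the top rested on WT replicate 1: without it the WT mean was 4656 for mir-93 and 4736 for mir-25, both below P351A plus ALA. Without C352A replicate 1 the C352A mean of mir-25 was 1022, below mock.

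Ratios within a library do not depend on its scale factor. 6 ratios were compared in 6 comparisons, 36 exact permutation tests in all, 2-sided, whose smallest possible p with 3 against 3 is 0.1. No p can therefore pass 0.05, and 0.1 became 0.171 after Benjamini-Hochberg adjustment.

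The log2 ratio of mir-93 to mir-25, hairpins of 1 primary transcript, was 0.02 ± 0.04 in mock and -0.00 ± 0.04 in WT (SD, n = 3). It was 0.24 ± 0.07 in P351A, above every WT library, a difference of 0.25 (exact permutation p = 0.1). In C352A it was -0.18 ± 0.47, and replicate 1 alone stood at -0.72. With ALA it was -0.03 ± 0.13, below every P351A library (difference -0.27, exact permutation p = 0.1). In the other table it stood at -2.16 in the parental and -1.40 in the dCTT library. Separate scaling of the tables does not enter a ratio within a library. The gap between the tables has no test, and its cause was not tested.

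Among the rescue groups, mir-106b was higher relative to its neighbours in mock than with WT, C352A or P351A. Mock libraries b and c held 149 and 164 reads of mir-106b. Its log2 ratio to mir-93 was -1.49 ± 0.21 in mock and -2.08 ± 0.09 in WT, and its ratio to mir-25 was -1.46 ± 0.19 and -2.08 ± 0.05. Neither pair of groups overlapped (differences -0.59 and -0.62, exact permutation p = 0.1 each). Against the same mock libraries, the ratio to mir-93 differed by -0.55 with C352A and -0.75 with P351A, and the ratio to mir-25 by -0.76 and -0.53, all without overlap (exact permutation p = 0.1 each). With ALA the ratio of mir-106b to mir-93 was -1.61 ± 0.46, above every P351A library at -2.24 ± 0.05 (difference 0.63, exact permutation p = 0.1), with replicate 3 at -2.14. The ratio to mir-25 differed by 0.36 with overlap (exact permutation p = 0.4), and replicate 3, at -2.21, was below all 3 P351A libraries. Outside the rescue groups, the ratio to mir-93 was -1.89 in the parental and -1.93 in the dCTT library, so it was not higher in dCTT. The ratio to mir-25 was -4.05 in the parental and -3.33 in the dCTT library, with no test.

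The ratio of mir-106b to mir-17, which share a seed and lie in different transcripts, had opposite signs with WT and P351A. It was -1.21, -0.88 and -0.76 on log2 in the WT libraries and 0.70, 0.77 and 0.87 in the P351A libraries. The difference was 1.73, without overlap (exact permutation p = 0.1). In C352A it was -0.69 ± 0.19, overlapping WT, and with ALA 1.06 ± 0.21, overlapping P351A.

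mir-25 was lower relative to mir-92a-1 with P351A: -2.43 ± 0.24 on log2 against -1.44 ± 0.03 in WT, a difference of -0.99 (exact permutation p = 0.1). For mir-92b relative to mir-25, WT stood lowest: the log2 ratio was -1.29 ± 0.24 in C352A and -1.31 ± 0.33 in P351A against -2.09 ± 0.21 in WT. Both differences, 0.80 and 0.78, were without overlap (exact permutation p = 0.1 each), and they share the WT libraries. Mock stood at -1.55 ± 0.30, above WT without overlap (difference of WT from mock -0.53, exact permutation p = 0.1), and overlapped both mutants (differences 0.26 and 0.24, exact permutation p = 0.2 and 0.3).

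**Figure D4:**
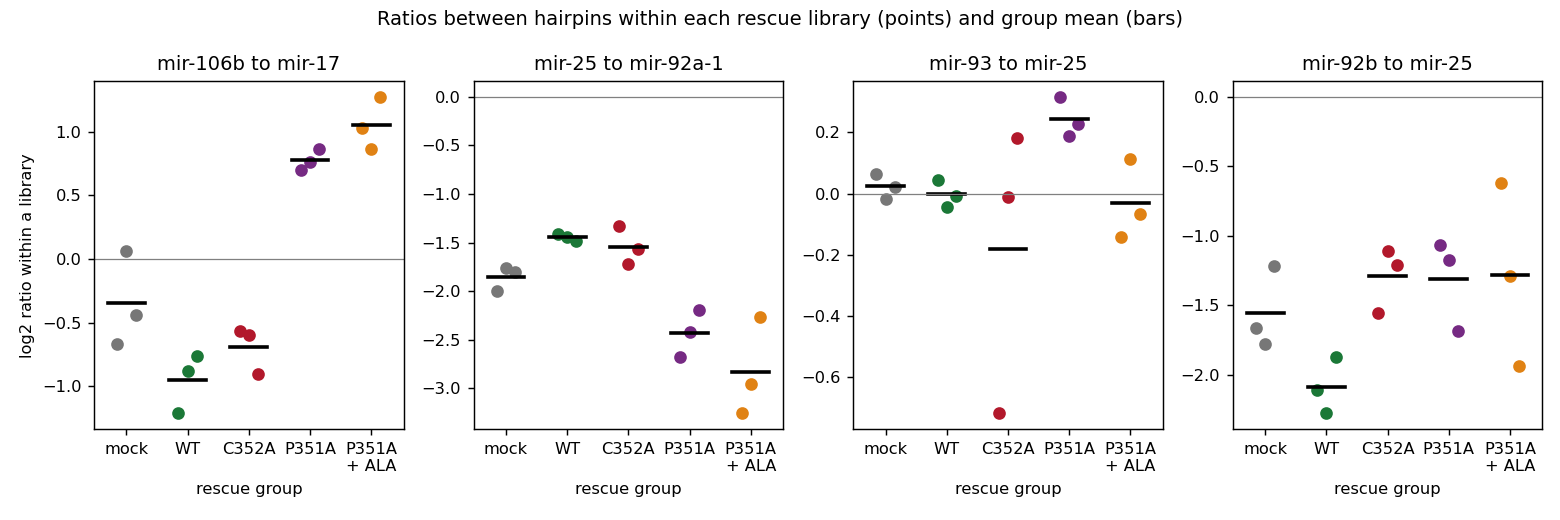
Log2 ratios between hairpins within each rescue library, points, with the mean of each group of 3, bars. mir-106b to mir-17 is below 0 in all WT and C352A libraries and above 0 in all P351A and P351A plus ALA libraries, and mir-93 to mir-25 lies near 0 in mock and WT.

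The tables give reads per hairpin and do not separate its arms, of which 1 carries the shared seed, so the shares below are of hairpins and not of seeds. Among mir-106b, mir-93, mir-17 and mir-20a, which have an arm of the miR-17 seed, mir-93 held the most reads in every library. Other hairpins with that seed, such as mir-106a, were not counted. Over the counted hairpins mir-93 gave 47.2 to 53.2% of the reads of a mock library and 51.8 to 56.2% of those of a WT library. Its share was 54.3 to 61.3% for C352A and 67.2 to 67.7% for P351A. mir-17 gave 22.3 to 26.8% in WT and 8.01 to 8.87% in P351A. With ALA mir-93 ranged from 53.2 to 69.8%, a wide spread in which 1 library held the highest share of any.

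Among hairpins with an arm of the miR-25/92 seed, mir-25 gave 24.6 to 25.7% of the reads of mir-25, mir-92b and mir-92a-1 in WT, 18.8 to 21.3% in mock, 12.7 to 17.0% in P351A and 8.92 to 16.5% with ALA. mir-92b gave 20.4% in the parental and 20.9% in the dCTT library, and 4.30 to 9.79% in the rescue libraries. Other hairpins with the miR-25/92 seed were not counted. These shares are compared without a test.

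**Figure D5:**
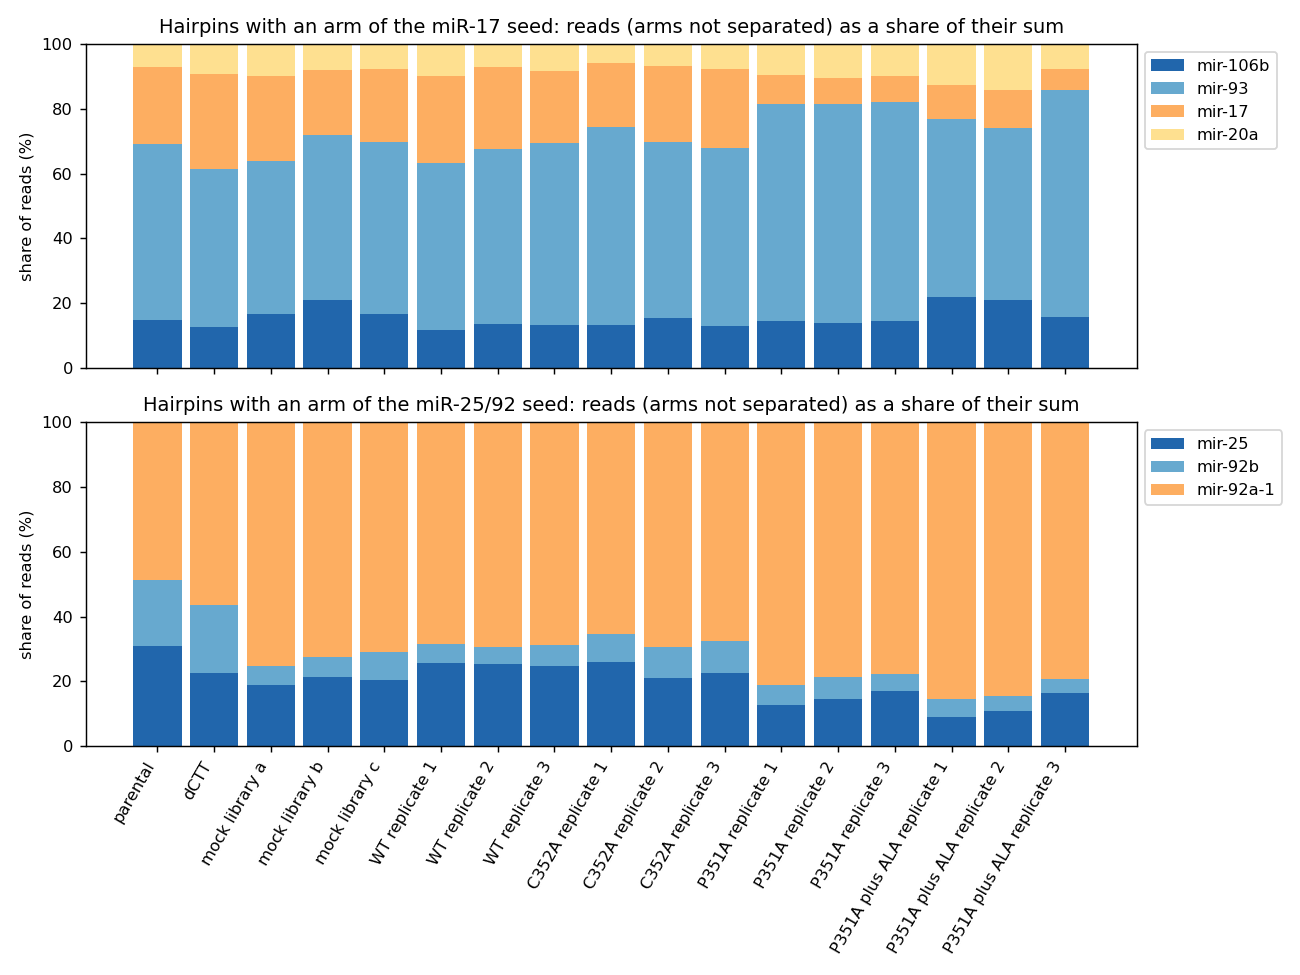
Share of hairpin reads (percent), arms not separated, 1 bar a library. The top panel holds mir-106b, mir-93, mir-17 and mir-20a (miR-17 seed), the bottom panel mir-25, mir-92b and mir-92a-1 (miR-25/92 seed). Other hairpins with these seeds were not counted. mir-93 is the largest part in every bar of the top panel, and mir-17 shrinks to 8.01 to 8.87% in the P351A libraries.

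Over the 15 rescue libraries, mir-93 and mir-25 followed each other closely, with a Pearson r of 0.974 on log2(value + 1). r was 0.937 for mir-106b with mir-93, 0.910 for mir-106b with mir-25, 0.897 for mir-92b with mir-25, 0.957 for mir-92b with mir-92a-1 and 0.676 for mir-106b with mir-17. The hairpins outside these clusters most like the mean of mir-106b, mir-93 and mir-25 were mir-21 (r = 0.977), mir-221 (0.973), mir-98 (0.969), mir-361 (0.962) and mir-140 (0.961). The libraries' scale factors are shared by all hairpins, so these are descriptions over 15 libraries.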

How the data were processed

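Per the labels' protocols, small RNA of 17 to 30 nt was size-selected on a 15% gel before library preparation. The submitters' processing notes name cutadapt 1.14, Bowtie2 and hg38. How reads were assigned to hairpins and how libraries were scaled is not given in the sources used here. In each deposited table a reference library (dCTT, or 1 mock library) holds whole read counts, and the other columns hold signal that the authors made by multiplying counts by a factor per library. Whole reads were recovered by dividing by that step (tolerance 0.001 of a read). limma 3.58.1 in R 4.3.3 was fitted to log2(value + 1) over all 15 rescue libraries with a mean-variance trend, a mean of at least 10, group as the only term and Benjamini-Hochberg adjustment over 336 hairpins (threshold 0.05). edgeR 4.0.16 and DESeq2 1.42.0 on recovered reads, other scalings, a pseudocount of 10, no filter, 2-group fits, replicate blocks and leaving out each library were alternatives. The fit was also run on simulated data in which the library factors were known, which cannot speak to the choice of scaling. Ratios used exact permutation tests (scipy 1.17.1). Genes around hairpins are from GENCODE 29.

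Every member was named, with the mir-17-92 hairpins and the 5 hairpins most like the mir-106b-25 mean. Members and lists were chosen with earlier results of these data known. In C352A over WT, deviations of same-numbered libraries had positive r (0.425, 0.185 and 0.289). C352A replicate 3 with WT replicate 2 had an r of 0.273, so these values do not settle whether the numbers pair samples. Same-numbered libraries had negative r in P351A over WT (-0.345, -0.240 and -0.135). In P351A plus ALA over P351A their r was 0.259, -0.0343 and 0.0512. The columns taken as mock are headed as knockout, not by the mock samples' titles. They were assigned to mock as the one rescue group without a form of DGCR8, so their numbers were not used.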

Additional observations from a re-analysis of the deposited data

How the results depend on the processing

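Ratios within a library do not move with its scale factor. edgeR with the authors' scale, chosen after seeing the data, called 2 members in P351A over WT. In C352A over mock it put the log2 difference of mir-25 at 0.00335, of other sign than by limma. With equal library totals, 1 member passed in WT over mock, 2 members passed in C352A over WT, 2 members passed in P351A over WT, 2 members passed in P351A plus ALA over P351A. Log2 differences of other sign were, in WT over mock, mir-18b -0.39, then in C352A over WT, mir-18b 0.087, mir-92b 0.24, then in P351A over WT, mir-93 0.15, mir-18b 0.13, mir-92b 0.68, then in P351A plus ALA over P351A, mir-106b -0.0064, mir-93 -0.64, mir-25 -0.36, mir-18b -0.16, mir-92b -0.34, mir-17 -0.28, then in C352A over mock, mir-25 0.10, then in P351A over mock, mir-18b -0.26. With edgeR and TMM, 2 members passed in WT over mock, 0 members passed in C352A over WT, 6 members passed in P351A over WT, 3 members passed in P351A plus ALA over P351A. 18 of all hairpins passed there in C352A over mock. Log2 differences of other sign were, in WT over mock, mir-18b -0.43, then in C352A over WT, mir-18b 0.14, mir-92b 0.55, then in P351A over WT, mir-106b 0.74, mir-93 0.90, mir-25 0.66, mir-18b 0.87, mir-92b 1.44, then in P351A plus ALA over P351A, mir-106b -0.40, mir-93 -1.03, mir-25 -0.76, mir-18b -0.63, mir-92a-2 -0.36, mir-92b -0.70, mir-17 -0.65, then in C352A over mock, mir-93 0.35, mir-25 0.70, mir-19b-2 0.00417, mir-92a-2 0.31, mir-17 0.059. With DESeq2, 3 members passed in WT over mock, 2 members passed in C352A over WT, 3 members passed in P351A over WT, 2 members passed in P351A plus ALA over P351A. 24 of all hairpins passed there in C352A over mock. Log2 differences of other sign were, in WT over mock, mir-18b -0.15, then in C352A over WT, mir-92b 0.31, then in P351A over WT, mir-106b 0.29, mir-93 0.45, mir-25 0.21, mir-18b 0.44, mir-92b 0.98, then in P351A plus ALA over P351A, mir-106b -0.084, mir-93 -0.72, mir-25 -0.45, mir-18b -0.32, mir-92a-2 -0.045, mir-92b -0.39, mir-17 -0.32, then in C352A over mock, mir-93 0.36, mir-25 0.70, mir-19b-2 0.027, mir-92a-2 0.32, mir-17 0.075. Centred on the median hairpin, 4 members passed in C352A over WT, 3 members passed in P351A over WT, 2 members passed in P351A plus ALA over P351A. 16 of all hairpins passed there in C352A over mock. Log2 differences of other sign were, in C352A over WT, mir-92b 0.032, then in P351A over WT, mir-106b 0.24, mir-93 0.40, mir-25 0.16, mir-18b 0.42, mir-92b 0.94, then in P351A plus ALA over P351A, mir-106b -0.36, mir-93 -0.996, mir-25 -0.72, mir-18b -0.56, mir-92a-2 -0.33, mir-92b -0.69, mir-17 -0.64, then in C352A over mock, mir-93 0.42, mir-25 0.63, mir-18b 0.25, mir-19b-2 0.20, mir-92a-2 0.32, mir-17 0.21. Centred on the DGCR8-independent list, 2 members passed in P351A over WT, 7 members passed in P351A plus ALA over P351A. 118 of all hairpins passed there in P351A over WT. 7 of all hairpins passed there in C352A over mock. Log2 differences of other sign were, in P351A over WT, mir-106b 0.19, mir-93 0.35, mir-25 0.10, mir-18b 0.36, mir-92b 0.88, then in P351A plus ALA over P351A, mir-106b -1.09, mir-93 -1.72, mir-25 -1.45, mir-18b -1.29, mir-92a-2 -1.06, mir-92b -1.42, mir-17 -1.37, then in C352A over mock, mir-93 0.060, mir-25 0.27, then in P351A over mock, mir-17 0.49.

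Fitted on only the groups compared, 3 members passed in P351A plus ALA over P351A, 2 higher and 1 lower. With no filter on low values 29 of all hairpins passed in C352A over mock. With the replicate block 1 member passed in P351A plus ALA over P351A, mir-92a-2, where same-numbered libraries had r of mixed sign. The block left 7 in C352A over WT and 0 in P351A over WT. No paired analysis was possible for comparisons with mock because the numbers of the mock columns could not be matched to labelled samples.

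Leaving out 1 library at a time gave 0 to 1 member called in P351A over WT and in P351A plus ALA over P351A, and 23 to 41 of all hairpins in C352A over mock. In P351A over WT mir-92a-2 ranged from -0.071 to 0.57 and mir-92b from -0.39 to 0.35. In C352A over mock mir-25 ranged from -0.54 to 0.20, mir-19b-2 from -0.82 to 0.023 and mir-92b from -0.15 to 0.42, and in P351A over mock mir-17 ranged from -0.68 to 0.031. Ratios that changed sign in C352A over WT were mir-106b to mir-93, -0.073 to 0.13, mir-106b to mir-25, -0.34 to 0.22, and mir-93 to mir-25, -0.36 to 0.088. mir-93 to mir-25 ranged from -0.39 to 0.062 in C352A over mock, and mir-92b to mir-25 from -0.30 to 0.35 in P351A plus ALA over P351A. The members' median ratio of parental over dCTT was 1.15 after median centring. The cause of these changes was not tested. Depth limits mir-18b and mir-106a most, which rest on few reads.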
